A study of Mus musculus with 2 samples.

Results

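T cells and natural killer (NK) cells were 59 of the 9169 cells that passed quality filters in 2 scRNA-Seq libraries of mouse periosteum. A cell was kept when it held at least 1 UMI of at least 2 of 8 lymphocyte genes (Cd3e, Cd3d, Cd3g, Trac, Trbc2, Klrb1c, Klrd1, and Ncr1), no more than 1 UMI of Cd79a, fewer than 5 of Elane, and fewer than 3 of Lyz2. Both libraries were replicates of a single condition, untreated wild-type C57BL/6 mice 4 weeks of age, and held cells from the periosteum of femurs and tibias sorted as CD45-CD31-Ter119- on the 10x Chromium 3′ v3.1 platform. How many mice gave each library is not given in the sources used here, so the spread between the libraries may be technical, and the sort was set to leave out CD45+ leukocytes such as these. Library 1 held 100808649 UMIs in 9932 barcodes and library 2 held 33306452 UMIs in 3659 barcodes. A unique molecular identifier (UMI) marks 1 captured transcript, so PCR copies are not counted, and levels are given as counts per 1000000 UMIs of a cell class (CPM).

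T cells recognize antigen through a receptor whose α and β or γ and δ chains are carried to the surface by the CD3 proteins and signal through the kinases Lck and Zap70. NK cells lack this receptor and are governed by activating and inhibitory receptors of the Klr (killer lectin-like) families, and both cell types kill through perforin and granzymes and secrete interferon-γ and chemokines. In bone, T cells are known as a source of cytokines that act on osteoclasts and osteoblasts.

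Library 1 held 35 T and NK cells of 6276 cells, or 0.558% (exact 95% Clopper-Pearson interval 0.389% to 0.775%), and library 2 held 24 of 2893, or 0.83% (0.532% to 1.23%). These intervals cover counting error only and overlap. T cells, defined by at least 1 UMI of Cd3e, numbered 11 and 8, and NK cells, defined by Ncr1 or Klrb1c without Cd3e, numbered 19 and 9. The remaining 5 and 7 cells met neither definition. T cells were thus 31.4% (16.9% to 49.3%) and 33.3% (15.6% to 55.3%) of the T and NK cells, and NK cells were 54.3% (36.7% to 71.2%) and 37.5% (18.8% to 59.4%). The NK share differed between libraries by less than these intervals. The median depth was 6480 and 5341 UMIs in T cells, 8230 and 6070 in NK cells, and 6942 and 4945 in the remaining members. Other cells with at least 1 UMI of Ptprc, which encodes CD45, numbered 2946 and 759 and had a median of 7528 and 5120 UMIs. The libraries shared 8 barcode sequences, and none of them belonged to a T or NK cell.

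The rule was checked against the genes that it used, as a description. Cd3e held 26 and 12 UMIs in T cells and 1 UMI in each library's other Ptprc+ cells. Ncr1, an activating receptor of NK cells, held 64 and 23 UMIs in NK cells and none in T cells. All 11 T cells of library 1 and all 8 of library 2 held Cd3d or Cd3g as well, and Ptprc was detected in 34 of 35 and 20 of 24 members. Klrb1c, the second gene of the NK definition, was present in 2 of the 11 T cells of library 1 and in none of library 2. The boundary with T cells was less sharp on the NK side, since 10 of 19 and 3 of 9 NK cells held a UMI of Cd3d or Cd3g. Trac or Trbc2 was detected in 9 of 19 and 6 of 9 NK cells, with 52 and 25 UMIs of Trbc2. Counting every member with Cd3e, Cd3d, or Cd3g as a T cell gave 25 of 35 and 16 of 24 members, and requiring all 3 to be at 0 left 9 and 6 NK cells.

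At the threshold of the rule, 5 members in each library held exactly 2 of the 8 genes, and 30 and 37 cells held exactly 1 and were left out. Of the latter, 13 and 20 held Trac alone and 14 and 12 held Klrd1 alone. The limits on Cd79a, Elane, and Lyz2 left out 3 and 2 cells that held 2 or more of the genes. Where such cells held Ptprc, they were counted among the other Ptprc+ cells. Of 3656 and 766 barcodes that failed the quality filters, none met the rule.

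**Figure D1:**
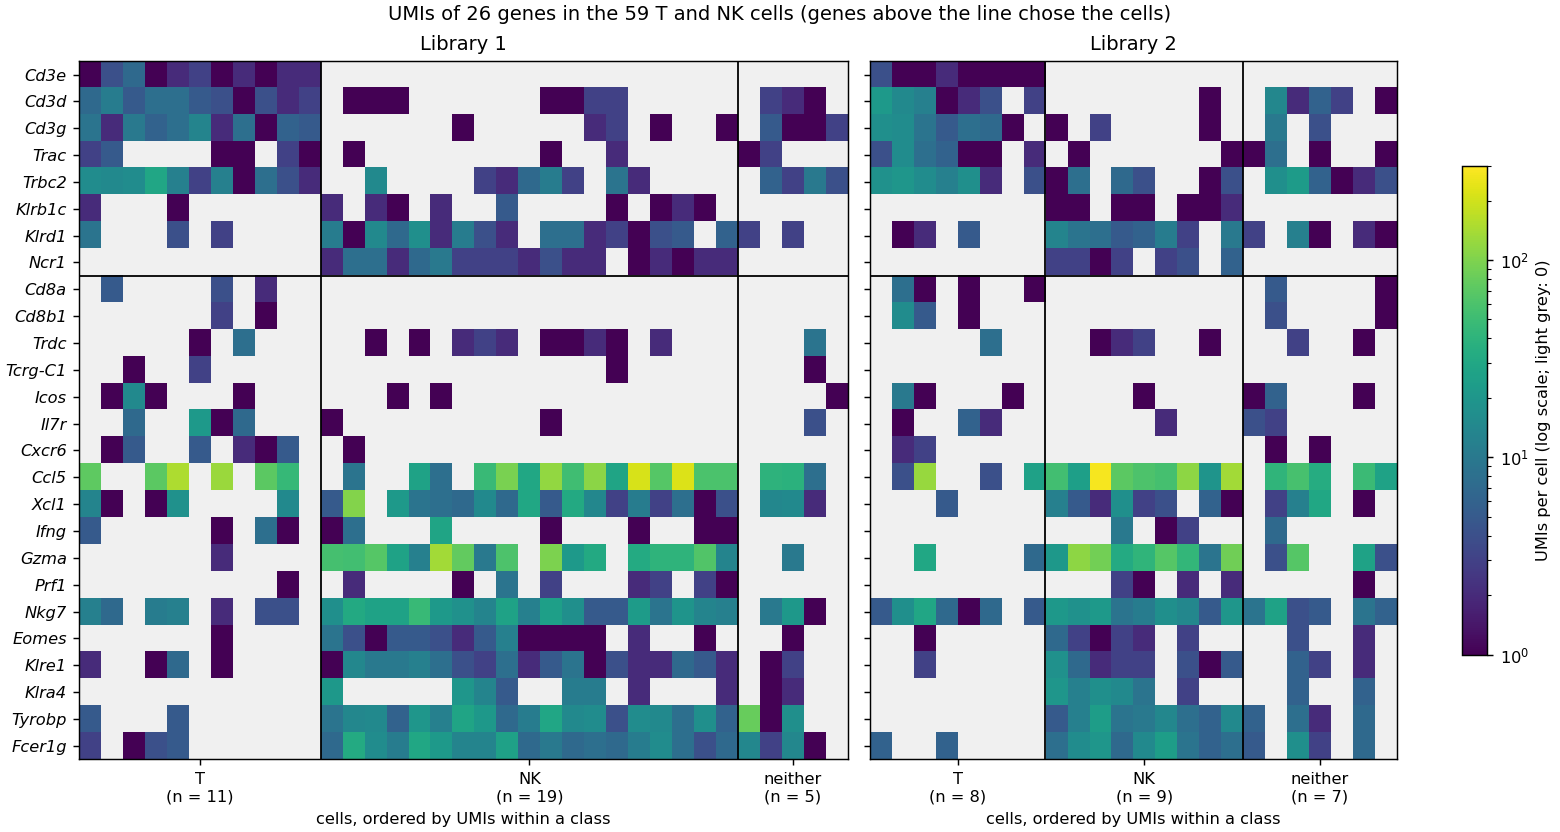
UMIs of 26 genes (rows) in each of the 59 T and NK cells (columns, by library, class, and UMIs) on a log color scale, with 0 in light grey. The 8 genes above the line chose the cells. Below it, Cd8a and Cd8b1 were seen in T cells and in members that met neither definition but in no NK cell, while Gzma, Eomes, Klre1, Tyrobp, and Fcer1g filled most NK columns.

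Among T cells as defined by Cd3e, transcripts of the CD8 coreceptor were found and those of CD4 were not. Cd8a or Cd8b1 was detected in 3 of 11 and 4 of 8 T cells, against 0 of 19 and 0 of 9 NK cells, and Cd8a was detected in 0.064% and 0% of B-lineage cells, which should lack it. Cd8a reached 147 and 228 CPM in T cells, with 11 and 11 UMIs. Cd4 held no UMI in any T cell, which allows a share of up to 27.3% and 37.5% of T cells with a Cd4 UMI (3 cells of the total, a rule of thumb that is not the exact interval given for other shares). Foxp3, the factor of regulatory T cells, held no UMI in T cells either. A library 1 cell that met neither definition held 1 UMI of Cd4 beside 3 of Cd3g and 4 of Trbc2. Cd4 was also seen in 9 of 2946 and 2 of 759 other Ptprc+ cells, and no expression was read from this single UMI.

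Transcripts of γδ receptor chains were present in a minority of T cells. A γ constant gene (Tcrg-C1, Tcrg-C2, or Tcrg-C4) was detected in 3 of 11 and 1 of 8 T cells and Trdc, the δ constant gene, in 2 of 11 and 1 of 8, whereas Trac, the α constant gene, was detected in 6 of 11 and 7 of 8. The γ constant genes are similar in sequence, and reads shared among them may have been lost or misplaced. In library 1, a single T cell of 6480 UMIs held all 7 UMIs of Cd163l1 (Scart1, a scavenger receptor of γδ T cells), together with 3 UMIs of Tcrg-C1, 22 of Il7r, 5 of Cxcr6, and 4 of Blk. No T cell of library 2 held Cd163l1, Il23r, Sox13, or Blk. Trdc was also found in 10 of 19 and 4 of 9 NK cells, with at most 3 UMIs in a cell, against 0.128% and 0.183% of B-lineage cells, whose median depth was 4605 and 4297 UMIs. Rag1, Rag2, and Dntt, which are used in receptor rearrangement, held no UMI in T or NK cells.

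Most NK cells carried cytotoxic transcripts. Gzma (granzyme A) was detected in 17 of 19 and 9 of 9 NK cells, with a median of 41 and 44 UMIs per cell and ranges of 0 to 137 and 9 to 113. In T cells it was detected in 1 of 11 and 2 of 8, with a highest value of 2 and 30 UMIs. Ccl5, a chemokine of activated T and NK cells, was detected in 15 of 19 and 9 of 9 NK cells and also in 6 of 11 and 4 of 8 T cells. Eomes, a T-box factor of NK cells, was detected in 15 of 19 and 6 of 9 NK cells and in 1 T cell of each library.

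These shares were compared at equal depth by thinning each cell to 1000 UMIs, which left out 1 of 2109 B-lineage cells and no T or NK cell. At that depth, Gzma was found in 89.5% (66.9% to 98.7%) and 100% (66.4% to 100%) of NK cells and in 0% (0% to 28.5%) and 25% (3.19% to 65.1%) of T cells. The share was higher in NK cells in both libraries, and these intervals cover counting error over cells, which are not replicates. No thinned B-lineage cell held Gzma. Tyrobp, which encodes the signaling adaptor DAP12, was found in 63.2% and 88.9% of thinned NK cells, in no thinned T cell, and in 5.89% and 4.95% of thinned B-lineage cells. Without thinning, Tyrobp was found in all NK cells, in 18.2% and 0% of T cells, and in 15.8% and 10.8% of B-lineage cells. Ccl5 was found in 68.4% and 100% of thinned NK cells and 54.5% and 50% of thinned T cells. When cells were thinned to 500 UMIs, the share in T cells of library 2 was 25%. For Eomes the thinned shares were near the level of 1 UMI (5.26% and 0% in NK cells), so no difference was read from them.

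T and NK cells were then compared with the other Ptprc+ cells, to describe the genes that accompany the 8 markers. Sums of UMIs over the cells of a class in a library were tested by edgeR's quasi-likelihood method (n = 2 libraries per class, Benjamini-Hochberg adjustment). Of 10765 genes, 353 were higher in T and NK cells (3.28% of genes tested) and 262 were lower (2.43%) at an adjusted p under 0.05, 5.71% in all. At an unadjusted p under 0.05 by edgeR, 966 of the 10765 genes were higher and 1183 lower. The 12 genes used to choose the cells or the cells compared were not tested. Because the cells were selected by lymphocyte genes, the higher genes describe the content of this selection and are not independent evidence for the cell types. The same holds for lower genes of B and myeloid cells, which the rule limited. The 10 genes with the largest fitted rise were Klra9, Cxcr6, Gzmk, Bcl11b, Samd3, Xcl1, Ccl5, Klra8, Tbx21, and Klrc1, and the genes that fell included B cell, neutrophil, and antigen presentation genes. With the library as a replicate block, which fits since both classes of a number share a library, 235 genes were higher and 119 lower. Of the 119 named genes, 25 lost their call with the block (adjusted p from 0.0505 to 0.182 by edgeR), among them Cd5, Rag1, Klrb1f, Klra7, Gzma, Gzmb, Rora, Zbtb16, Id3, Maf, Itgam, Zbp1, Nr4a1, H2-Eb1, Ms4a1, Pax5, Csf1r, C1qa, Ctss, Mcpt8, Prss34, Col2a1, and Iglc2. Without the T and NK cells of library 1, the counts were 198 and 174, without the other cells of library 1 they were 76 and 116, and without the other cells of library 2 they were 100 and 115. Fewer genes were lower (152) when members were required to have no UMI of Cd79a, Elane, and Lyz2, and more (489) when the compared cells had no Cd79a.

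Of the genes of the T cell receptor complex and its signaling, edgeR called 15 of 17 tested higher and none lower (also none at an unadjusted p under 0.05 or by DESeq2), with a median log2 CPM ratio of 6.25 against −0.05 over all genes tested (a class at 0 UMIs was set to 3 UMIs). Trbc1, among the 15, is nearly identical to Trbc2 of the rule, so its rise is uncertain. Lck, the kinase that starts receptor signaling, was 414 and 187 CPM in T cells, 149 and 253 CPM in NK cells, and 5.98 and 8 CPM in other Ptprc+ cells (log2 fold change 4.76 ± 0.39 (SE), adjusted p = 0.000891 by edgeR). The levels of both T and NK cells lay above those of the other cells in both libraries. Bcl11b, a factor required for T cell identity, held 8 and 4 UMIs in T cells and none in other Ptprc+ cells, which made it at least 387-fold and 48.8-fold higher in T and NK cells (adjusted p = 0.00188 by edgeR). Ms4a4b, a membrane protein of T and NK cells, reached 566 and 801 CPM in all members against 3.89 and 3.02 CPM (adjusted p = 0.000265 by edgeR). Cd5 and Cd6, receptors that tune T cell signaling, also rose, and 28 of their 29 UMIs in T and NK cells as defined lay in the T cells. The adhesion receptor Cd2 was 117 and 288 CPM against 24.8 and 75.3 CPM and, like Ubash3a, did not pass the test (adjusted p = 0.102 by edgeR).

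NK receptors and their adaptors showed the largest median of the lists on lymphocytes, 7.75, and 17 of 21 tested genes rose. None was called lower by edgeR or DESeq2, and 1 was lower at an unadjusted p under 0.05 by edgeR. Klrb1a, Klrb1b, and Klrb1f, among the 17, are relatives of Klrb1c of the rule, so their rise is uncertain. Fcgr3 was not called and lay lower in members in both libraries, with log2 ratios of −2.62 and −1.01. Klra4, Klra8, and Klra9 encode receptors of the Ly49 family. Klra4 held 85 and 76 UMIs in NK cells, none in T cells, and 24 and 4 UMIs in other Ptprc+ cells (log2 fold change 9.19 ± 0.50 (SE), adjusted p = 0.000265 by edgeR). Klra9 had the largest fitted rise, which rests on a count of 0 in other cells and can be given only as a difference of at least 563-fold and 256-fold. Ly49 genes are similar in sequence and lie side by side on mouse chromosome 6 (Klra4 at 130043731 to 130067271 and Klra9 at 130178675 to 130193112, GRCm38), so that UMIs may be split between them and the share of each is uncertain. Il2rb, the receptor chain for interleukin-2 and interleukin-15, was 387 and 353 CPM in T cells and 439.6 and 492 CPM in NK cells against 0.457 and 0.131 CPM (log2 fold change 9.95 ± 0.55 (SE), adjusted p = 0.000265 by edgeR). Tyrobp and Fcer1g, adaptors that myeloid cells also use, did not pass edgeR's test, with Tyrobp at 956 and 604 CPM in members and 714 and 639 CPM in other Ptprc+ cells.

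Of the cytotoxic granule genes, edgeR called 10 of 13 tested higher and none lower (median 5.72), with 1 lower at an unadjusted p under 0.05 and 1 lower by DESeq2 (Lamp1). Gzma was 2169 and 3088 CPM in members and 4.69 and 0 CPM in other cells (log2 fold change 9.99 ± 1.33 (SE), adjusted p = 0.00539 by edgeR, 0.0522 with the block). In library 1, 4 cells held all 195 of the Gzma UMIs of the other Ptprc+ cells, and in library 2 none of these cells held any. Prf1 (perforin), Fasl, and Ctsw rose as well, by 8.32 ± 0.67, 9.77 ± 1.00, and 8.60 ± 0.47 on the log2 scale. Gzmk, a granzyme of memory T cells and some NK cells, was at 0 in other cells and at least 352-fold and 158-fold higher. Srgn, Cst7, and Lamp1, which other leukocytes also express in their granules, did not pass edgeR's test, with Lamp1 at 50.7 and 101 CPM against 208 and 200.4 CPM (adjusted p = 0.0718 by edgeR and 0.0299 by DESeq2).

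Among lymphocyte transcription factors, 9 of 14 tested rose (Eomes, Tbx21, Gata3, Rora, Zbtb16, Id2, Runx3, Maf, and Tox) and Id3 fell (median 2.78). Tbx21, which encodes the T-box factor T-bet, held 18 and 5 UMIs in members and 1 UMI in other cells. Runx3, a factor of cytotoxic lymphocytes, was 289 and 292 CPM against 35.5 and 28.1 CPM (log2 fold change 3.27 ± 0.32 (SE), adjusted p = 0.00172 by edgeR). Id3, which early B cells express at high levels, was 127 and 33.6 CPM against 370.3 and 827 CPM (adjusted p = 0.0472 by edgeR, 0.182 with the block). Its level was 280.4 and 41.5 CPM in T cells and 98.1 and 14.9 CPM in NK cells, which was higher in library 1 in both cell types.

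Of the cytokines and chemokines, edgeR called 3 of 9 tested higher (Ifng, Ccl5, and Xcl1) and none lower (median 1.93), nor was any lower at an unadjusted p under 0.05 or by DESeq2. Ccl5 was 7158 and 3302 CPM in T cells, 4506 and 12070 CPM in NK cells, and 1.03 and 6.43 CPM in other cells (log2 fold change 10.61 ± 0.95 (SE), adjusted p = 0.00125 by edgeR). Xcl1, a chemokine for cross-presenting dendritic cells, was 641 and 104 CPM in T cells, 1134 and 745 CPM in NK cells, and 0.649 and 0 CPM in other cells. Ifng (interferon-γ) was detected in 4 of 11 and 0 of 8 T cells and in 7 of 19 and 3 of 9 NK cells. Tnfsf11, which encodes the osteoclast factor RANKL, held 4 UMIs in 4 T cells of library 1 and none in those of library 2, and it was too low to be tested. Il17a held 1 UMI in a T cell of library 1.

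Of the chemokine receptor and residency genes, 6 of 15 tested rose (among them Cxcr3, Cxcr6, Itga2, Itgb7, and Cd27) and Itgam fell (median 1.27). Cxcr6, a receptor of tissue lymphocytes, held 19 and 5 UMIs in T cells, 1 and 0 UMIs in NK cells, and none in other Ptprc+ cells, which made it at least 704-fold and 85.3-fold higher in members (adjusted p = 0.00148 by edgeR). The values were higher in T cells than in NK cells in both libraries. Itga2, an integrin chain known as an NK marker, held 9 and 3 UMIs in NK cells and none in T cells.

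Genes of naive and recirculating lymphocytes were mostly not called. Of 9 tested, Tcf7 rose (log2 fold change 4.95 ± 0.57 (SE)) and the other 8 did not pass the test (median 0.96). Of the genes of CD4, CD8, and regulatory T cells, 4 of 7 tested rose (Cd8a, Cd8b1, Ikzf2, and Tnfrsf18; median 4.3). Of the γδ receptor list, Trdc rose and 1 other gene could be tested (median 3.95). Of the list for innate lymphoid cells 2 and 3, 1 of 5 rose (Il18r1, median 0.95). None of 15 cell cycle genes was called by edgeR or DESeq2 (median −0.68). At an unadjusted p under 0.05 by edgeR, 4 of the 15 were lower, beside 1183 of all 10765 genes tested.

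Immediate early genes, which respond within minutes to cell stimulation and to tissue dissociation, rose in 4 of 9 cases (Junb, Dusp1, Ier2, and Nr4a1; median 1.26). Junb was 3392 and 1475 CPM in T cells and 2261 and 3130 CPM in NK cells against 346 and 541 CPM in other cells (log2 fold change 2.43 ± 0.29 (SE), adjusted p = 0.00379 by edgeR). Fos and Jun were not called, with Fos at 172 and 144 CPM against 72 and 146 CPM. Of 10 interferon response genes, Zbp1 rose (median 0.45). Of 9 MHC genes, H2-K1 and H2-Q7 of class I rose and Cd74, H2-Aa, H2-Ab1, and H2-Eb1 of class II antigen presentation fell (median 0.76). H2-Aa and H2-Eb1 held no UMI in T or NK cells, against 69.3 and 179 CPM of H2-Aa in other Ptprc+ cells.

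B cell and neutrophil markers were low in T and NK cells, in part by construction, since the rule limited Cd79a, Elane, and Lyz2. All 10 tested B cell markers and all 8 tested neutrophil markers fell (medians −5.06 and −7.74), as did 3 of 8 monocyte and macrophage markers (Csf1r, C1qa, and Ctss; median −1.35). Without Cd79a, the B cell list summed to 88.8 and 115 CPM in members and to 3749 and 7373 CPM in other cells, with Ighm as its most abundant gene in members (23 and 16 UMIs) and Ms4a1 and Pax5 at 0 in both libraries. Without Elane, the neutrophil list summed to 464 and 95.9 CPM in members and 94310 and 68010 CPM in other cells, and S100a9 led it with 76 UMIs in library 1. Without Lyz2, the monocyte and macrophage list summed to 127 and 62.3 CPM in members and 212 and 344 CPM in other cells. Stromal markers summed to 107 and 52.8 CPM, with Pdgfra, Prrx1, Lepr, and Col3a1 at 0 in members of both libraries. Of 6 tested stromal markers, 3 fell (median −2.47), of 4 basophil and mast cell markers 2 fell (median −0.93), of 6 immature T cell genes Rag1 fell (median −0.65), and the single endothelial gene tested was not called (0.58). Of 4 dendritic cell markers, Itgax rose and Cst3 fell (median 1.01), and Itgax, an integrin that NK cells also express, was 43.2 and 89.4 CPM in NK cells.

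The 10 genes with the largest fitted fall (Ifitm6, Ms4a3, Mgst1, Mmp9, Fcnb, Ibsp, Cd177, Cebpe, Cecr2, and Iglc2) were all at 0 UMIs in T and NK cells as well as in the remaining members. Their fitted changes rest on these zeros and only bounds can be given. S100a8, of which members held 53 UMIs in library 1 and 2 in library 2, had log2 ratios of −7.82 and −11.34. Ms4a3, a gene of granulocyte and monocyte progenitors, was 199.8 and 158 CPM in other cells, which made it at least 26.2-fold and 11-fold lower in T and NK cells. Ibsp (bone sialoprotein) is a gene of osteoblasts and was seen in 89 and 14 of the other Ptprc+ cells. A single cell held 1155 of the 3352 Ibsp UMIs of these cells in library 1 and another 1550 of the 1568 in library 2, so that its level in library 2 rests on 1 barcode.

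**Figure D2:**
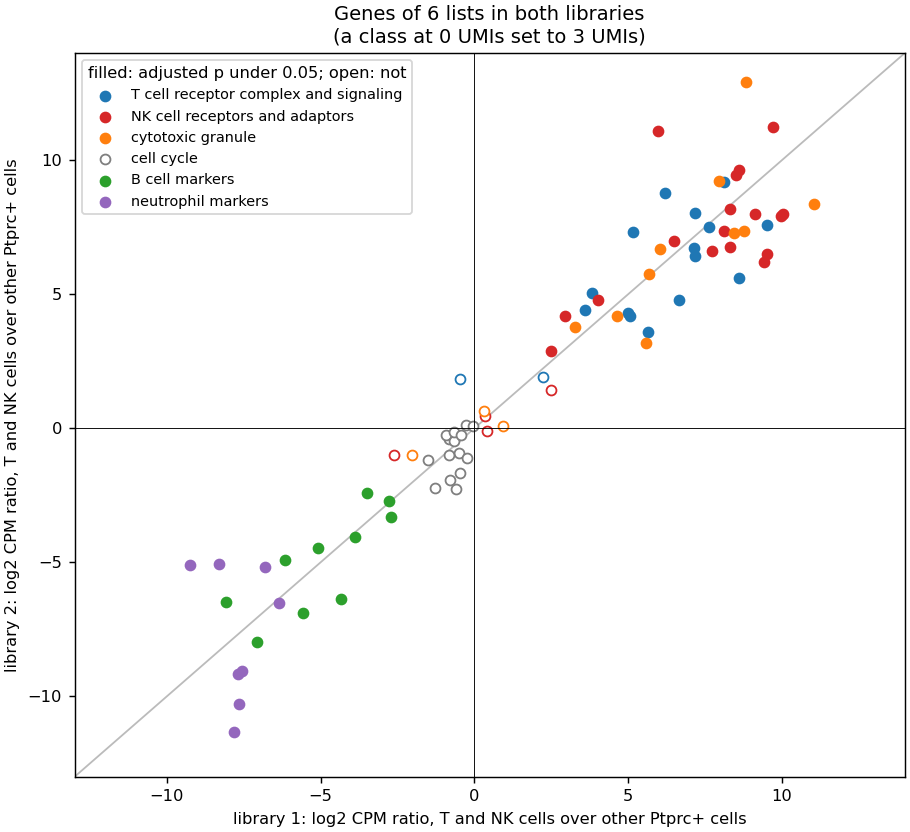
Log2 ratio of CPM in T and NK cells over other Ptprc+ cells in library 1 (x axis) and library 2 (y axis) for each tested gene of 6 lists, with a class at 0 UMIs set to 3 UMIs. Filled points passed edgeR's adjusted p of 0.05, open points did not, and the grey line marks equal ratios. T cell, NK, and cytotoxic genes that passed lie in the upper right, B cell and neutrophil markers in the lower left, and the 15 cell cycle genes near the origin.

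NK cells were next compared with T cells, in a single fit that also held B-lineage and myeloid cells as further classes. B-lineage cells had at least 2 UMIs of Cd79a. Myeloid cells had at least 3 UMIs of Lyz2 or at least 5 of Elane, and no more than 1 of Cd79a. Both classes were limited to Ptprc+ cells with fewer than 2 of the 8 lymphocyte genes. Irf8 was higher in NK cells and Ifi27l2a was lower, each 1 of 9460 genes tested (0.0106%, or 0.0211% in both directions). At an unadjusted p under 0.05, 743 genes differed. Irf8 (ENSMUSG00000041515, chromosome 8, 120736358 to 120756694 of GRCm38) encodes an interferon regulatory factor of myeloid, B, and NK cells. It held 105 and 74 UMIs in NK cells, in 17 of 19 and 9 of 9 cells, and none in T cells. NK cells were at 412 and 1103 CPM and lay above B-lineage cells at 238 and 209.8 CPM, myeloid cells at 75.1 and 72 CPM, and T cells, in which 3 UMIs would have been 40.1 and 62.3 CPM. The difference from T cells was at least 10.3-fold and 17.7-fold (adjusted p = 0.0219 by edgeR). Ifi27l2a (ENSMUSG00000079017, chromosome 12, 103442167 to 103443680 of GRCm38), an interferon-inducible gene, held 26 and 34 UMIs in T cells, in 5 of 11 and 5 of 8 cells, and 1 and 0 UMIs in NK cells (adjusted p = 0.0219 by edgeR). Its level was 347 and 706 CPM in T cells and 241 and 475 CPM in B-lineage cells. The ratio of NK to T cells was 0.0113 (95% interval 0.000276 to 0.0688) in library 1, and NK cells were at least 15.8-fold lower in library 2.

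Neither call withstood every alternative. Irf8 passed in 8 of 15 alternatives (adjusted p from 0.000438 to 0.356) and Ifi27l2a in 10 (0.000349 to 0.667), while under the replicate block Irf8 had an adjusted p of 0.0553 by edgeR and Klra4 was called in its place (0.0311). No gene was called by edgeR when any 1 of the 4 T and NK sums was left out. DESeq2 called 13 genes, of which 4 were higher in NK cells (Irf8, Klra4, Tyrobp, and Fcer1g) and 9 were lower (Ifi27l2a, Cd8a, Icos, Il7r, Lat, Cd6, S100a4, S100a6, and Klk8).

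The upstream sequences of Irf8 and Gzma are shown because the level of both genes was higher in NK cells than in T cells in both libraries, although Gzma did not pass the test. They are the 250 bases before the start of each gene, read 5′ to 3′ on the gene's strand from RefSeq on GRCm38.p6. Both starts matched the annotated gene starts. Capitals mark matches to the motif of STAT factors, TTCNNNGAA (GAS), and of RUNX factors, TGTGGT, searched on both strands together with the T-box motif TCACACC.
Irf8: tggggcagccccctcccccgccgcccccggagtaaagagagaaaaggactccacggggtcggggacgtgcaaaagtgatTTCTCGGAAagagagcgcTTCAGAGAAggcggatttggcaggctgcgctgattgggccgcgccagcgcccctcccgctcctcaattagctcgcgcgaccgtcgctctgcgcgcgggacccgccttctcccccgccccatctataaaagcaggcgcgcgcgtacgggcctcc
Gzma: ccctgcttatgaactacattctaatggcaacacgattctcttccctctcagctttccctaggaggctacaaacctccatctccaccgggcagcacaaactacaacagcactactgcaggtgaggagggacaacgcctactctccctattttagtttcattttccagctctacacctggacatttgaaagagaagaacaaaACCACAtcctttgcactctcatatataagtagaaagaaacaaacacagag
The Irf8 stretch lies at chr8:120736108-120736357 on the plus strand and holds 2 matches to TTCNNNGAA, which begin 171 and 153 bases before the start. The Gzma stretch lies at chr13:113100982-113101231 on the minus strand and holds 1 match to TGTGGT, on the opposite strand, which begins 50 bases before the start. Of 32851 promoters of the same length, 7.02% held the first motif, 14.05% the second, and 3.33% the T-box motif, which neither stretch held. A match to these letters is a description and was not tested for binding.

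Other genes were higher in one cell type than in the other in both libraries without passing edgeR's threshold. The intervals of ratios given here treat UMIs as independent and cover counting error only. Klra4 held 85 and 76 UMIs in NK cells and none in T cells (adjusted p = 0.0852 by edgeR). Gzma was 3309 and 7527 CPM in NK cells and 26.7 and 768 CPM in T cells, where library 1 held 2 UMIs, a ratio of 124 (95% interval 34.2 to 1025) in library 1 and 9.79 (95% interval 7.01 to 14.1) in library 2 (adjusted p = 0.469 by edgeR). In library 2, only 2 of 8 T cells held Gzma, 1 with 30 UMIs and the other with 7, so its level there is not that of most T cells. Eomes was 212 and 283 CPM in NK cells and 13.3 and 20.8 CPM in T cells, which held 1 UMI in each library (adjusted p = 0.182 by edgeR). On the T cell side, Il7r, the interleukin-7 receptor, was 494 and 187 CPM in T cells and 7.85 and 29.8 CPM in NK cells, and Icos, a costimulatory receptor, was 240.4 and 249 CPM and 7.85 and 14.9 CPM. Their adjusted p values by edgeR were 0.175 and 0.234. A single T cell held 15 of the 18 Icos UMIs of T cells in library 1 and another 10 of the 12 in library 2, and in library 1 the cell with Cd163l1 held 22 of the 37 Il7r UMIs, so these levels are not those of most T cells. Ccl5 went in opposite directions, with a ratio of NK to T cells of 0.63 (95% interval 0.568 to 0.699) in library 1 and 3.66 (95% interval 3.08 to 4.36) in library 2, where 1 T cell held 125 of the 159 Ccl5 UMIs of T cells.

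By list, the median log2 ratio of NK over T cells was 1.31 for NK receptors and adaptors, 0.77 for cytotoxic genes, 0.44 for cytokines and chemokines, −0.05 for transcription factors, −0.78 for T cell receptor signaling, and −2.5 for the CD4, CD8, and regulatory list, against −0.03 over all genes tested. edgeR called none of the 77 genes tested in these lists. At an unadjusted p under 0.05, 18 of the 77 were higher and 10 lower, beside 535 and 208 of all 9460 genes. DESeq2 called 3 genes of the NK list higher (Klra4, Tyrobp, and Fcer1g) and 3 of the T cell receptor list (Icos, Lat, and Cd6) and Cd8a lower. These ratios used only genes above the floor of 3 UMIs in either class, 5925 of 9460. The fitted median over all 9460 genes had the other sign, 0.21, and was 0.04 without TMM factors, so that values between them carry no direction. When changes were simulated in this design with the same spread for every gene, the test found 52.0% of genes set to a log2 change of 4 and 2.5% of genes set to 2. For the comparison with other Ptprc+ cells it found 71.2% and 18.9%. Under that setting, most differences of 2 between NK and T cells were thus not detectable with these libraries.

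**Figure D3:**
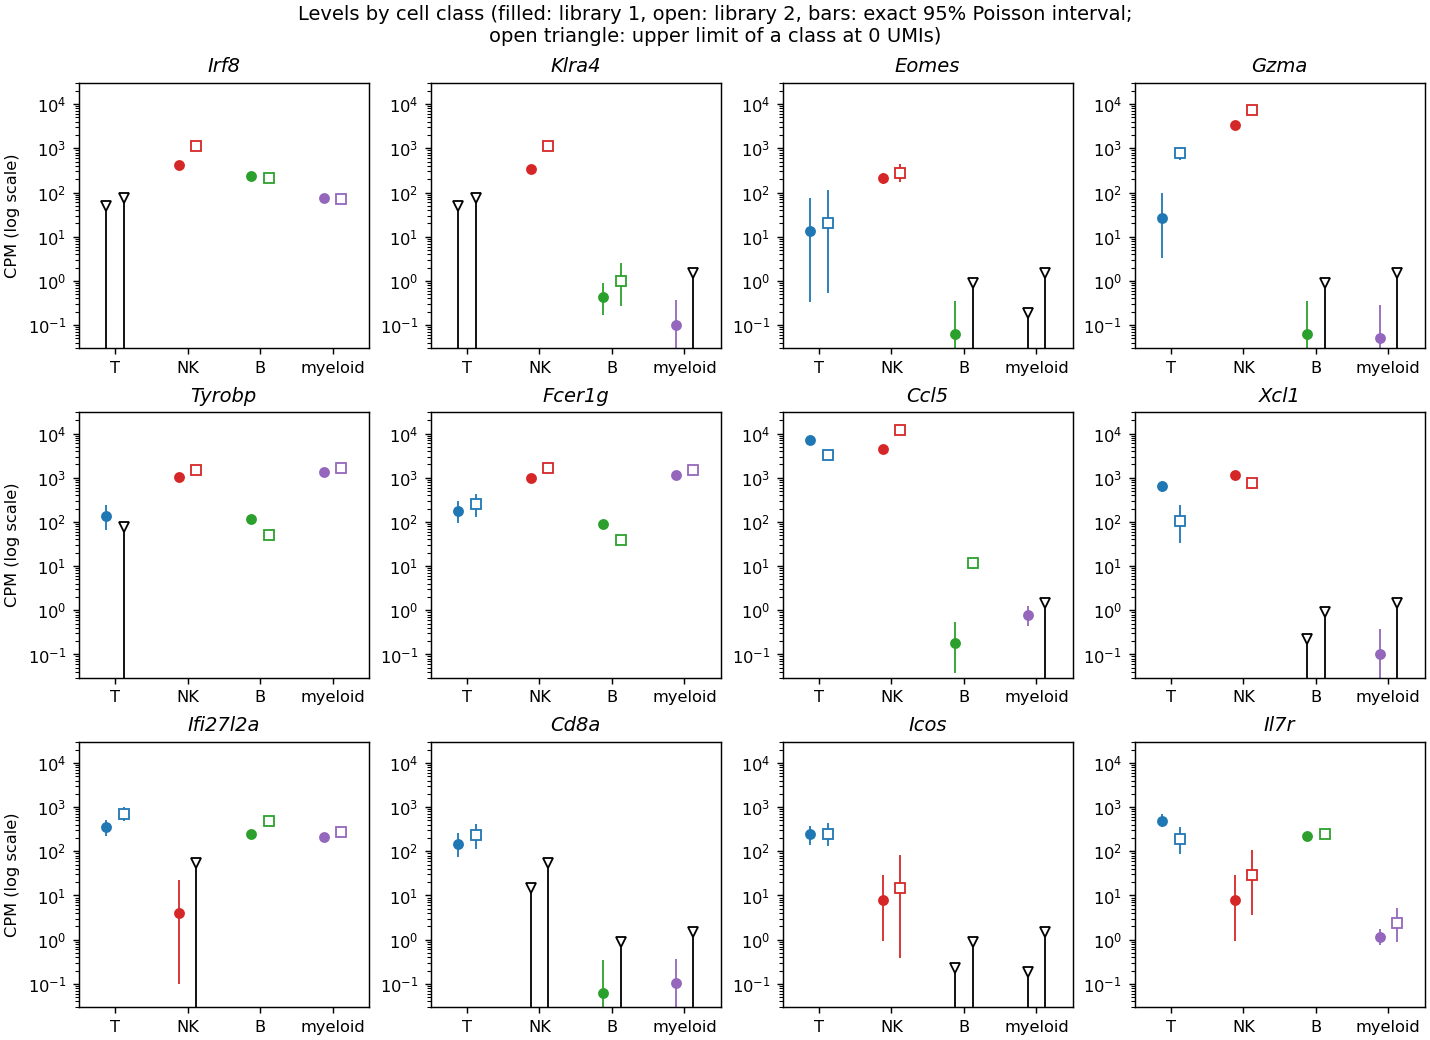
Levels in CPM (log y axis) of 12 genes in T, NK, B-lineage, and myeloid cells, with library 1 filled and library 2 open. Bars are exact 95% Poisson intervals of the UMI count, which cover counting error only, and open triangles mark the upper limit of a class at 0 UMIs. Irf8 and Klra4 sat at 0 UMIs in T cells and Cd8a at 0 UMIs in NK cells of both libraries, while Ccl5 was high in both cell types.

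The cells that met neither definition were mixed. Of these 12 cells, 9 held Cd3d or Cd3g and all 12 held Trac or Trbc2. In library 2, a cell of 22025 UMIs held 14 UMIs of Cd3d, 10 of Cd3g, 17 of Trbc2, and 5 of Cd8a, and a cell of 19662 UMIs held 23 of Trbc2 beside 67 of Gzma, 12 of Klrd1, and 4 of Eomes. Others rested on few UMIs of the 8 genes. The deepest cell of library 1 had 41248 UMIs, of which 30.5% came from 8 erythroid genes, with 80 UMIs of Tyrobp and 4 of Siglech, a gene of plasmacytoid dendritic cells, and only 1 of Trac and 3 of Klrd1. The deepest cell of library 2 had 36537 UMIs with 48 of Dntt, 13 of Cd34, and 7 of Flt3, genes of early progenitors, and again 1 of Trac and 3 of Klrd1.

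An NK cell of library 1 with 31809 UMIs also had 31.2% erythroid UMIs, together with 8 UMIs of Ncr1, 53 of Gzma, and 105 of Xcl1. The next highest erythroid shares were 1.53% in NK cells and 1.54% in T cells of library 1, and the highest in library 2 was 0.132%. The erythroid list thus summed to 58720 and 436 CPM in T and NK cells and to 16480 and 3701 CPM in other Ptprc+ cells, led by Hbb-bs in library 1 and Car2 in library 2, and none of its 8 genes was called by edgeR or DESeq2 or had an unadjusted p under 0.05. The fitted median of the list was 1.1 and the median of its CPM ratios was −1.09, so the signs differed. Without these 2 cells and the cell with Dntt, 412 genes were higher and 357 lower than in other Ptprc+ cells, and between NK and T cells Klra4 and S100a4 were called beside Irf8 and Ifi27l2a. No doublet caller was run, and whether these 3 barcodes hold more than 1 cell was not tested.

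**Figure D4:**
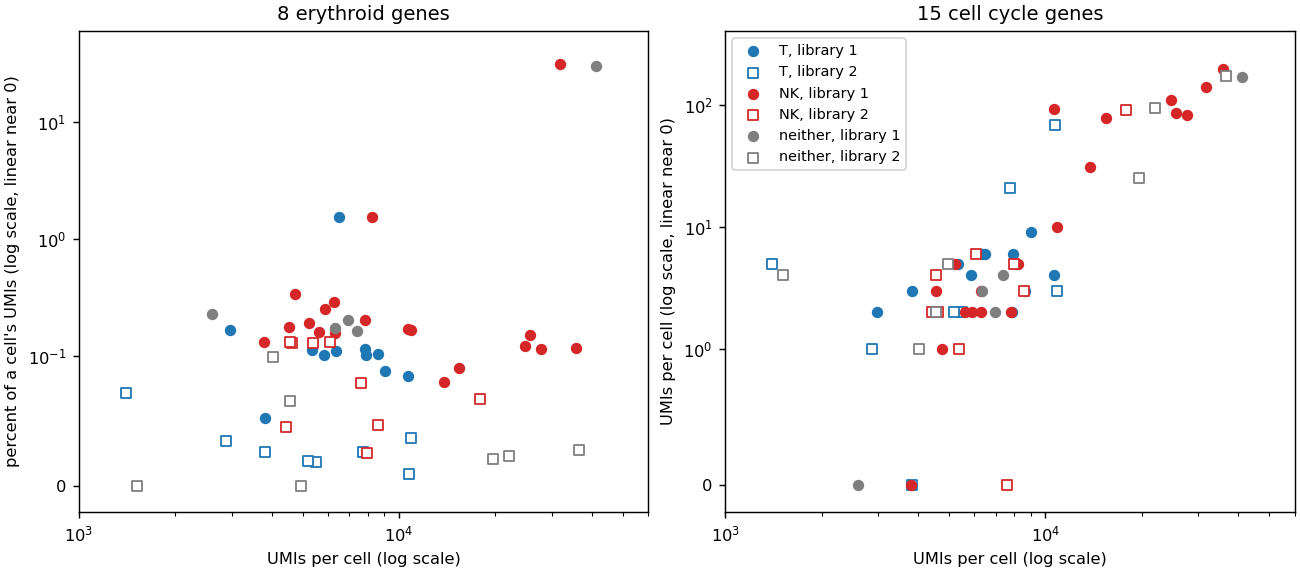
Percent of UMIs from 8 erythroid genes (left) and UMIs of 15 cell cycle genes (right) against the UMIs of each T and NK cell, on log axes that turn linear near 0, with library 1 filled and library 2 open. In the left panel, 2 cells of library 1 stand apart at 31.2% and 30.5% erythroid UMIs, and cells with many cell cycle UMIs were also deep.

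The highest counts of cell cycle UMIs lay in deep cells. At least 10 UMIs of the 15 cell cycle genes were found in 9 of 19 and 1 of 9 NK cells and in 0 of 11 and 2 of 8 T cells. This cut was not adjusted for depth. The highest value was 195 UMIs in an NK cell, against a median of 5 and 3 in NK cells and 4 and 2.5 in T cells. As a share of a cell's UMIs, the medians were 0.092% and 0.0452% in NK cells and 0.0759% and 0.0375% in T cells. The highest share, 0.865%, was in an NK cell of 10642 UMIs, and a library 2 T cell of 1404 UMIs reached 0.356%. The list summed to 3325 and 1699 CPM in NK cells, 668 and 2119 CPM in T cells, and 3935 and 3687 CPM in other Ptprc+ cells. In library 2, 1 T cell held 68 of the 102 cell cycle UMIs of T cells and 1 NK cell held 91 of the 114 of NK cells, so that no order of the 2 cell types was read there. No gene of the list was called in either comparison by edgeR or DESeq2. Between NK and T cells, 5 of its 15 genes were higher in NK cells at an unadjusted p under 0.05, beside 535 of all 9460 genes.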

How the data were processed

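Mouse periosteal scRNA-Seq data were 2 libraries of 1 condition. The authors aligned and counted reads with Cell Ranger (6.1.2 and mm10 in the submitters' processing notes) and deposited UMI counts per gene and barcode (32288 features, of which 32285 are mouse genes), without normalization and with at least 500 UMIs per barcode. Cells with fewer than 500 genes or UMIs or over 10% mitochondrial UMIs were removed here. Doublets were not called. The members and 23 gene lists were chosen with earlier results of these data known.

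UMIs were summed per library and class, filtered by filterByExpr, normalized by TMM, and tested by the quasi-likelihood method of edgeR 4.0.16 (R 4.3.3), with DESeq2 1.42.0 as an alternative. Both classes of a library share its preparation, which pairs the sums: deviations from class means correlated at 0.261 over 10777 genes against other Ptprc+ cells and at 0.049 over 9471 genes between NK and T cells. The genes named were the list genes, a few of which are not reported here, and, in each direction, the 10 called genes with the largest change in the same direction in both libraries. Reporters, S100a4, S100a6, and Klk8 were named after their values were seen. Coordinates are from GENCODE M21 on GRCm38. The test was tried on 3 simulated sets per comparison and made no false call there. These sets gave every gene the same spread and did not model single cells that hold most UMIs of a gene. The result therefore does not give the rate of false calls in these libraries.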

Additional observations from a re-analysis of the deposited data

Results flagged for a closer look

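The feature list includes the reporter tdTomato, although the labels give wild-type mice and no comparison used it. T and NK cells held 8 UMIs of tdTomato in library 1 (20.3 CPM, exact 95% Poisson interval 8.76 to 40.0) and 10 UMIs in library 2 (48.0 CPM, 23 to 88.2), in 8 of 35 and 8 of 24 cells. These counts exceed the 3 UMIs that a count of 0 allows. Other Ptprc+ cells held 735 and 358 UMIs, or 17.7 and 47.0 CPM, which lie within the intervals of the T and NK cells. EGFP and tdTomato-WPRE were at 0 UMIs in T and NK cells.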

How the results depend on the processing

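The 119 named genes of the comparison with other Ptprc+ cells kept their direction in all alternatives in which they could be fitted. Not every gene could be fitted in every alternative. Of the 119, 88 kept an adjusted p under 0.05 (edgeR or DESeq2) wherever fitted among the 11 alternatives that kept every sum. Fewer did so when the alternatives that leave out a sum are included. Printed as genes higher and lower, the replicate block gave 235 and 119 (331 of its calls shared with the reported ones), Cd79a, Elane, and Lyz2 at 0 gave 152 lower, compared cells with Cd79a at 0 gave 489 lower, and leaving out 1 sum gave 76 to 239 higher and 115 to 203 lower. The block also took the call from 25 of these named genes and, between NK and T cells, from Irf8, where it gave one to Klra4, and it changed no other call of a named gene. Between NK and T cells the counts were 4 and 9 by DESeq2, 2 and 2 by the legacy quasi-likelihood fit and without the erythroid and Dntt members (an alternative added after seeing the data), 0 and 0 with Cd79a, Elane, and Lyz2 at 0, 0 and 1 with T and NK sums alone, and 0 and 0 for each sum left out, with 1 and 1 under the block. In those that leave out a sum, the class with 1 sample was assumed to vary like the others. Leaving out a whole library left no residual degrees of freedom and was a value with no test. Members without Cd79a, Elane, and Lyz2 were 0.367% of cells in library 1. T cells with any CD3 gene were 71.4% and 66.7% of members, and NK cells without any were 25.7% in library 1. Thinned to 500 UMIs, B-lineage shares were 0% for Ccl5 in library 2 and 4.54% and 2.38% for Tyrobp, the Ccl5 share of T cells in library 2 was 25%, and NK shares were 55.6% for Tyrobp in library 2 and 15.8% for Eomes in library 1. The cause of these changes was not tested. With 11 and 8 T cells and 74883 and 48147 UMIs, a gene at 0 UMIs in T cells may be at up to 40.1 and 62.3 CPM.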
